A study of Mus musculus with 15 samples.

Results

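CD103-CD11b- DCs and CD103+CD11b+ DCs from the small intestinal lamina propria (LP) were compared across all genes of the array, with 3 arrays of each population and 6 in all out of the 15 arrays of the series. Every difference below is the mean log2 signal of CD103-CD11b- DCs minus that of CD103+CD11b+ DCs, so that a positive value is a higher signal in CD103-CD11b- DCs and a difference of 1 is a 2-fold change. The comparison held 19938 genes, each read from 1 probeset that maps to a single gene symbol, and where a gene had several such probesets the one with the highest mean was used. The cells came from the small intestine of untreated wild-type C57BL/6 mice after removal of the Peyer's patches and the epithelium, and 100000 cells of each population were sorted. Both populations were gated as CD64- DCs and differ by design in surface CD103 and CD11b. The other populations of the series, CD103-CD11b+ DCs, CD103+CD11b- DCs and CD64+ macrophages, had 3 arrays each and are given beside the comparison where they help to place a gene. The study describes its replicates as biological samples without the number of mice behind each, so the p-values measure the spread between these samples. It left the small CD103-CD11b- population out of its own comparison of DC subsets.

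Conventional DCs of the gut fall into a cDC1 lineage, which depends on the transcription factors IRF8 and BATF3, takes up dead cells and presents antigen to CD8+ T cells, and a cDC2 lineage, which depends on IRF4 and carries CD11b and SIRPα. CD103 is the αE integrin chain, which pairs with β7 and binds E-cadherin on epithelium. CD103+CD11b+ DCs are the abundant cDC2 of the small intestine and migrate to the draining lymph node, where they act on T cell differentiation. DCs that lack both markers are a small and mixed population whose lineage is less settled.

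The arrays had like distributions after normalization, with medians between 4.74 and 4.86 and between 7255 and 7547 genes with a log2 signal over 6. Replicates correlated across genes at Pearson's r of 0.986 to 0.992 in CD103-CD11b- DCs and of 0.993 to 0.995 in CD103+CD11b+ DCs, against 0.975 to 0.984 between the populations. Some arrays stood apart in genes of other cells. The mean signal of 20 macrophage genes was 6.86 on CD103-CD11b- array 1 against 5.97 and 6.06 on arrays 2 and 3. The mean of 15 pancreatic acinar genes was 7.96 on CD103-CD11b- array 2 against 5.18 and 5.78, and 7.25 on CD103+CD11b+ array 2 against 5.06 and 6.37.

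The sort genes followed the gate, which is a check of the labels and not a result. *Itgae*, which encodes CD103, had log2 signals of 8.61, 8.71 and 8.96 on the CD103-CD11b- arrays and of 10.55, 10.24 and 10.35 on the CD103+CD11b+ arrays. *Itgam*, which encodes CD11b, was at 7.02, 6.51 and 6.40 against 9.44, 9.65 and 9.60. Both genes were lower in CD103-CD11b- DCs on every array, although neither was at its lowest there. In CD103-CD11b+ DCs *Itgae* averaged 7.84 ± 0.42 (SD, n = 3), and in CD103+CD11b- DCs *Itgam* averaged 4.93 ± 0.16. *Fcgr1*, which encodes CD64, was low in both populations at 4.02 ± 0.47 and 3.87 ± 0.11, against 8.92 ± 0.21 in macrophages.

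General DC genes were close in the compared populations. *Flt3*, the growth factor receptor of the DC lineage, had signals of 9.89, 9.76 and 10.17 in CD103-CD11b- DCs and of 9.73, 9.48 and 9.58 in CD103+CD11b+ DCs, a difference of 0.35 ± 0.12 (SE) that did not pass the test. *Zbtb46*, a transcription factor of conventional DCs, differed by -0.26 ± 0.14 and *Ptprc*, which encodes CD45, by -0.23 ± 0.09. *Flt3* was at 5.31 ± 0.15 in macrophages, 4.64 below CD103-CD11b- DCs (limma, Benjamini-Hochberg adjusted p = 1.6e-12, in a comparison in which 6.30% of genes passed). *Itgax*, which encodes CD11c, was lower by 0.61 ± 0.12 in CD103-CD11b- DCs, short of the fold required. *Cd24a* differed by 0.29 ± 0.31. Its SD was 0.06 and 0.07 in the compared populations and 0.95 in macrophages, whose arrays enter the SE.

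A gene was called when its limma difference had a Benjamini-Hochberg adjusted p under 0.01 over all genes and exceeded 1 in either direction. By this rule 384 genes, 1.93% of those tested, differed between the populations. Of these, 181 (0.908%) were higher in CD103-CD11b- DCs, with a median difference of 1.55, and 203 (1.02%) were lower, with a median of -1.32. Every count of list members below is to be read against these shares. At an unadjusted p under 0.05, 1636 genes were higher and 1718 lower. Large differences were few, with 38 called genes above 2 and 34 below -2. The 3 arrays of a population did not overlap those of the other for any called gene, a property that 23.2% of all genes had in one direction or the other. No call of detection came with the signals, so a gene with a low signal in a population is not shown to be above background there. Folds are therefore given only where both means exceeded a log2 signal of 6, as was so for 221 of the 384 called genes, and other genes are given by the difference between signals.

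**Figure D1:**
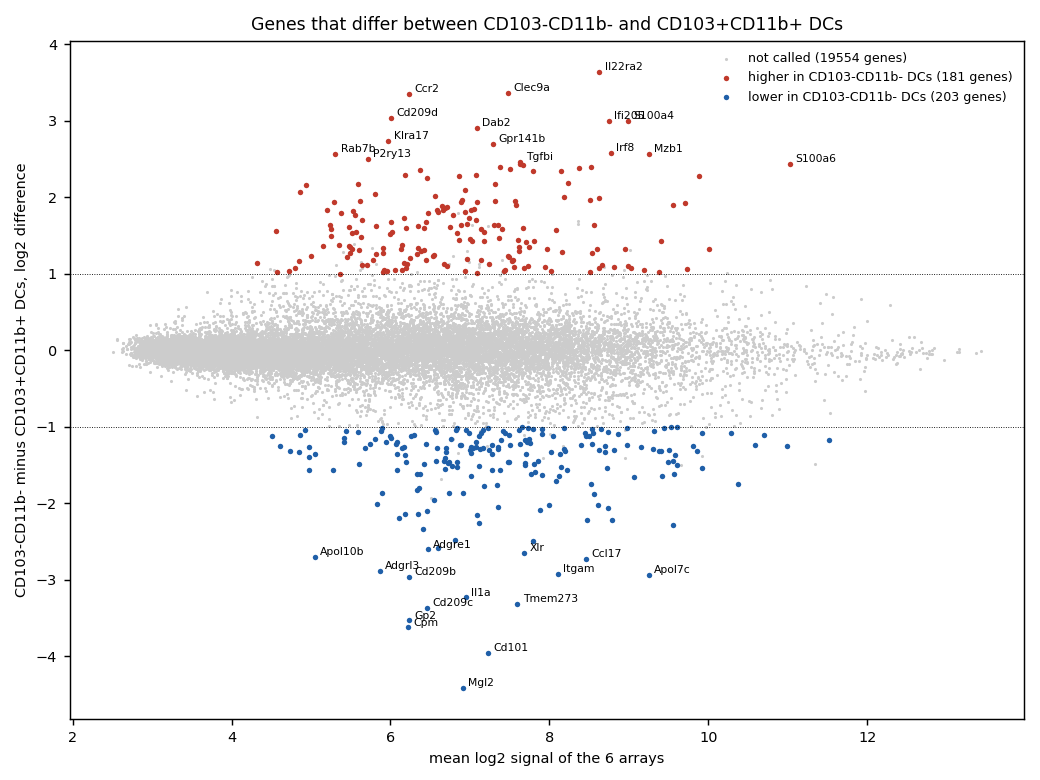
Log2 difference, CD103-CD11b- minus CD103+CD11b+ DCs, against the mean log2 signal of the 6 arrays for 19938 genes. Red points are the 181 genes called higher and blue points the 203 called lower, dotted lines mark a difference of 1 in either direction, and the 15 largest in each direction are labelled; the largest lie at 3.65 (*Il22ra2*) and -4.41 (*Mgl2*).

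Among the 15 genes with the largest increase were receptors and enzymes of several lineages. *Il22ra2*, which encodes a soluble receptor that neutralises IL-22, led with signals of 10.09, 10.67 and 10.60 in CD103-CD11b- DCs against 6.79, 6.71 and 6.92 in CD103+CD11b+ DCs. The difference was 3.65 ± 0.33, or 12.5-fold (limma adjusted p = 6.7e-06). The CD103-CD11b+ population had a mean of 9.18 ± 0.57, and the CD103+CD11b- population one of 5.96 ± 0.76, 4.49 below CD103-CD11b- DCs (adjusted p = 4.3e-07, in a comparison in which 2.66% of genes passed). The 1.27 by which CD103-CD11b- DCs exceeded CD103-CD11b+ DCs did not pass (adjusted p = 0.0512, in a comparison in which 0.808% of genes passed).

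A group of these genes was shared in level with CD103-CD11b+ DCs. *Ccr2*, the chemokine receptor that monocytes use to leave the bone marrow, had signals of 8.04, 7.43 and 8.28 in CD103-CD11b- DCs and of 4.36, 4.43 and 4.90 in CD103+CD11b+ DCs (difference 3.35 ± 0.26, limma adjusted p = 1.6e-06). *S100a4*, which encodes a calcium-binding protein, was at 10.71, 10.23 and 10.54 against 7.37, 7.45 and 7.66. Neither differed by a detectable amount from CD103-CD11b+ DCs, with 0.06 for *Ccr2* (adjusted p = 0.963) and 0.02 for *S100a4* (adjusted p = 0.986). *Dab2*, an adaptor of endocytosis, and *Tgfbi*, a matrix protein first found as a target of TGFβ, were higher than in CD103+CD11b+ DCs by 2.91 ± 0.21 and 2.47 ± 0.19. Against CD103-CD11b+ DCs they differed by 0.34 (adjusted p = 0.579) and -0.33 (adjusted p = 0.519). *S100a6* (2.44 ± 0.23), *Klra17*, an inhibitory receptor of the Ly49 family (2.74 ± 0.27), and *P2ry13*, an ADP receptor (2.50 ± 0.29), were higher as well. *Klra17* is uncertain, as other Ly49 genes are similar in sequence and may be read by the same probes.

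*Cd209d* stood above every other DC population. It encodes a C-type lectin of the DC-SIGN family and had signals of 7.64, 7.18 and 7.77 in CD103-CD11b- DCs against 4.61, 4.35 and 4.49 in CD103+CD11b+ DCs, a difference of 3.04 ± 0.17 (limma adjusted p = 1.1e-07). The gene was also 1.92 above CD103-CD11b+ DCs (adjusted p = 1.8e-05) and 3.15 above CD103+CD11b- DCs (adjusted p = 4.5e-08). The rest of the 15 were *Clec9a*, *Ifi205*, *Irf8*, *Rab7b* and *Gpr141b*, which CD103+CD11b- DCs also had at high levels, and *Mzb1*, a gene of antibody-secreting cells.

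The largest decrease in signal was that of *Mgl2*, which encodes the galactose-binding lectin CD301b of cDC2. Its signals were 4.87, 4.41 and 4.84 in CD103-CD11b- DCs and 9.15, 9.02 and 9.18 in CD103+CD11b+ DCs, a difference of -4.41 ± 0.20 (limma adjusted p = 1.4e-08). CD103-CD11b+ DCs had 9.08 ± 0.39 and macrophages 9.61 ± 0.39, while CD103+CD11b- DCs had 4.75 ± 0.13, within 0.04 of CD103-CD11b- DCs. *Cd101*, an inhibitory receptor of the immunoglobulin superfamily, was at 5.25, 5.08 and 5.41 against 9.42, 9.03 and 9.16. *Tmem273* was at 6.28, 5.14 and 6.38 against 9.54, 9.01 and 9.21.

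Some of the strongest decreases were in genes with their highest mean in CD103+CD11b+ DCs. *Gp2*, a glycoprotein best known as a bacterial receptor of M cells, was at 3.84, 5.21 and 4.35 in CD103-CD11b- DCs and 8.48, 8.04 and 7.47 in CD103+CD11b+ DCs (difference -3.53 ± 0.40, limma adjusted p = 4.5e-05). *Cpm*, which encodes carboxypeptidase M, was at 4.18, 4.31 and 4.73 against 7.92, 8.46 and 7.71 (difference -3.62 ± 0.24). Against the other DCs, *Gp2* in CD103-CD11b- DCs differed by 0.10 from CD103-CD11b+ (adjusted p = 0.961) and by 0.20 from CD103+CD11b- (adjusted p = 0.887). *Xlr*, an X-linked gene of lymphocytes, was 6.29-fold lower. *Adgrl3*, an adhesion G protein-coupled receptor, was lower by 2.88 ± 0.13, and its highest mean was the 7.63 of macrophages, against 7.31 in CD103+CD11b+ DCs.

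*Apol7c* and *Apol10b* of the apolipoprotein L family had their lowest mean of all 5 populations in CD103-CD11b- DCs. *Apol7c* was at 8.44, 7.24 and 7.65 in CD103-CD11b- DCs and 10.92, 10.47 and 10.77 in CD103+CD11b+ DCs, and it averaged 10.14 in the CD103-CD11b+ population, 11.40 in the CD103+CD11b- one and 11.11 in macrophages. The difference of *Apol7c* from each was past the thresholds, at -2.94 from CD103+CD11b+ DCs, -2.36 from CD103-CD11b+ DCs (limma adjusted p = 0.00029), -3.62 from CD103+CD11b- DCs (adjusted p = 1e-06) and -3.33 from macrophages (adjusted p = 6.9e-07). *Apol10b* had a mean of 3.70 ± 0.18 against 6.40 ± 0.22 (difference -2.70 ± 0.22). Members of this family are similar in sequence, and probes of one may read another.

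**Figure D2:**
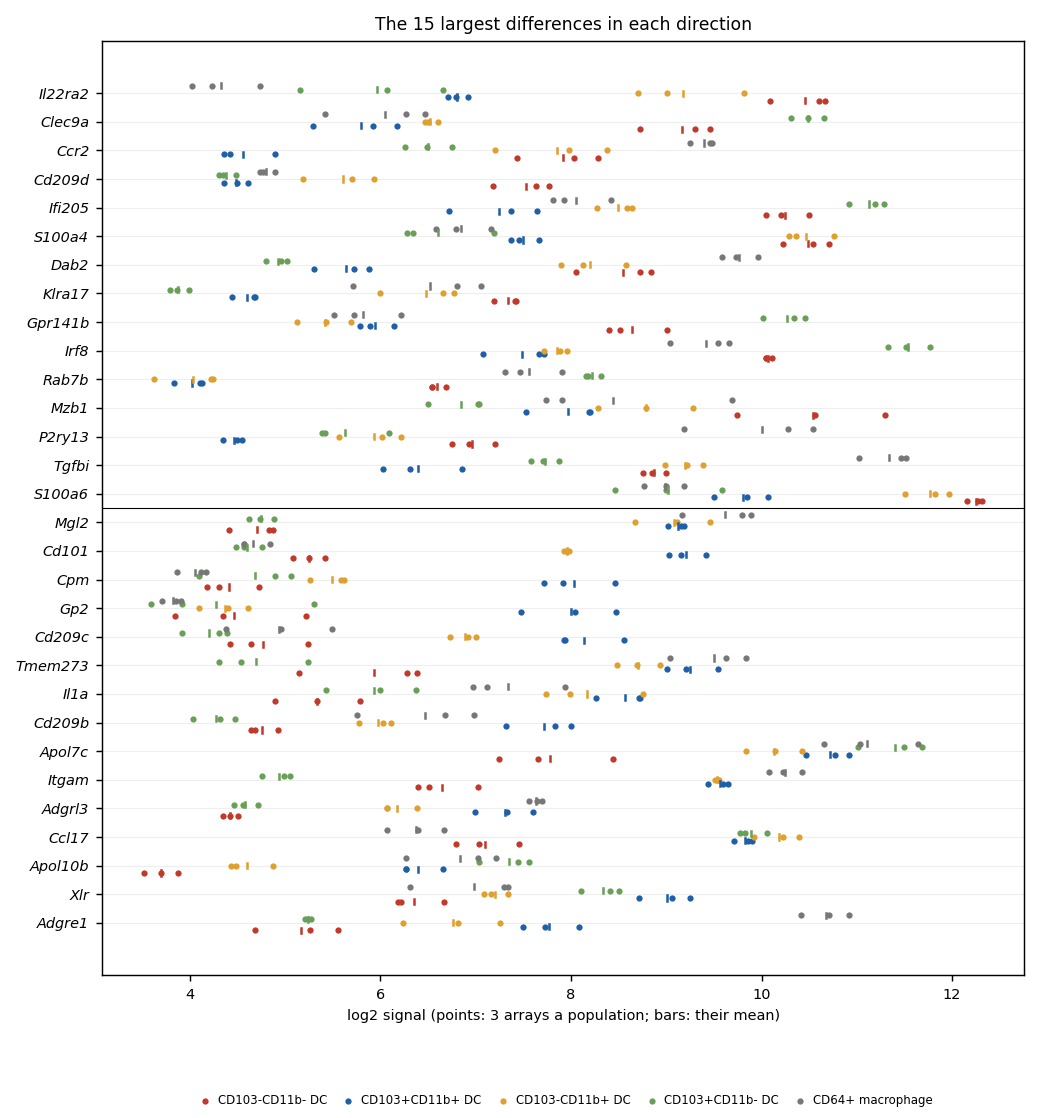
Log2 signal of the 15 genes with the largest increase (above the line) and the 15 with the largest decrease (below it) in CD103-CD11b- against CD103+CD11b+ DCs, with a point for each of 3 arrays of 5 populations and a bar at their mean. Red and blue points do not overlap for any of these genes, *Ccr2* and *S100a4* are near the CD103-CD11b+ DCs in orange, and *Clec9a*, *Irf8* and *Rab7b* lie between the blue points and the CD103+CD11b- DCs in green.

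The cDC1 genes were higher as a group. Of 21 measured cDC1 markers, 13 were called higher and none lower, where 0.908% and 1.02% of all genes were. The median difference was 1.54, and over all genes it was -0.01. Most of these markers are also among the genes that the study listed as unique to CD103+CD11b- DCs on these same arrays. A lower signal in CD103+CD11b+ DCs was part of that choice, so their direction here is not independent evidence. *Clec9a*, which encodes a receptor for dead cells, had signals of 9.30, 8.73 and 9.46 in CD103-CD11b- DCs and of 5.29, 5.93 and 6.17 in CD103+CD11b+ DCs, a difference of 3.37 ± 0.26 (limma adjusted p = 1.5e-06). *Xcr1*, the chemokine receptor that marks cDC1, was at 8.84, 8.30 and 8.95 against 6.05, 6.12 and 6.80 (2.37 ± 0.26, adjusted p = 3e-05). Every array of CD103-CD11b- DCs exceeded every array of CD103+CD11b+ DCs for both genes.

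*Irf8*, the transcription factor on which cDC1 depend, had nearly equal signals of 10.05, 10.11 and 10.05 in CD103-CD11b- DCs and 7.08, 7.66 and 7.72 in CD103+CD11b+ DCs, a 5.99-fold difference (2.58 ± 0.18, limma adjusted p = 5.1e-07). *Rab7b*, a small GTPase of the endosomal route, was higher by 2.57 ± 0.17 and *Ifi205*, an interferon-inducible member of the PYHIN family, by 3.0 ± 0.22. *Tlr3*, the sensor of double-stranded RNA, was higher by 2.34 ± 0.29. *Batf3*, the partner of IRF8 in cDC1 development, did not follow, with signals of 9.15, 8.72 and 9.04 against 9.45, 8.92 and 9.02 and a difference of -0.16 ± 0.14 (adjusted p = 0.664). With 9.35 in CD103-CD11b+ and 9.50 in CD103+CD11b- cells, its means spanned 8.97 to 9.50 over the DC populations.

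The cDC1 genes of CD103-CD11b- DCs were still below those of CD103+CD11b- DCs, the cDC1 of the gut. *Clec9a* was lower there by 1.32 (limma adjusted p = 0.00379), *Xcr1* by 2.33 (adjusted p = 2.1e-05), *Irf8* by 1.47 (adjusted p = 5.3e-05) and *Rab7b* by 1.63 (adjusted p = 1.2e-05). On average over the 21 markers, the arrays of CD103-CD11b- DCs had signals of 7.67, 7.39 and 7.83, those of CD103+CD11b+ DCs 5.95, 6.10 and 6.28, and those of CD103+CD11b- DCs 9.14, 9.03 and 9.19. The CD103-CD11b- arrays thus lay between the other sets without overlap. In RNA from a sorted population, a smaller share of cells that express a gene and a lower level in each cell cannot be told apart.

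Part of the cDC2 genes were called lower in CD103-CD11b- DCs, although not the transcription factors of the lineage. Of 17 cDC2 markers, 8 were called lower and 1 higher, where 1.02% and 0.908% of all genes were, with a median difference of -0.92. Without CD103-CD11b- array 2 or CD103+CD11b+ array 1 the lower calls came to 5. Most of these markers, with all of those called, are among the genes that the study listed as shared by both CD11b+ DC subsets on these same arrays. A high signal in CD103+CD11b+ DCs was part of that choice, so the lower calls are not independent evidence. Besides *Mgl2*, the called members included *Cd209a*, the mouse gene named for DC-SIGN, at 8.63, 7.99 and 8.63 against 10.69, 10.75 and 10.66 (difference -2.28 ± 0.22, limma adjusted p = 9.4e-06), and *Clec4a2*, a C-type lectin, at 5.41 ± 0.30 against 7.51 ± 0.20 (difference -2.10 ± 0.16). *Cd209a* remained 2.30 above its level in CD103+CD11b- DCs (adjusted p = 5e-06). *Ltb*, which encodes lymphotoxin β, was the member called higher, at 8.36, 8.51 and 8.0 against 6.43, 6.11 and 6.48 (1.95 ± 0.17).

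The cDC2 transcription factors did not pass. *Irf4* had signals of 8.68, 9.20 and 8.77 in CD103-CD11b- DCs and of 9.39, 9.50 and 9.14 in CD103+CD11b+ DCs, a difference of -0.46 ± 0.30 (limma adjusted p = 0.522), and exceeded CD103+CD11b- DCs by 2.83 (adjusted p = 1.6e-05). *Klf4* differed by -0.47 ± 0.18 and *Zeb2* by -0.06 ± 0.12. *Tbx21*, also a transcription factor of the cDC2 list, was lower and short only of the fold required (-0.92 ± 0.11, adjusted p = 6.5e-05). *Sirpa*, the surface receptor of cDC2, was lower by 0.50 ± 0.14 (adjusted p = 0.0411). CD103-CD11b- DCs as a population therefore had *Irf4* at a level near that of CD103+CD11b+ DCs beside *Irf8* at a level above it. Cells with both factors and a mixture of cells with either cannot be told apart in RNA from a sorted population. *Irf4* was highest, at 9.20, on CD103-CD11b- array 2, which was also the highest in the plasma cell genes given below. The part of plasma cell RNA in the signal of *Irf4* was not tested.

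The study named a set of genes as particular to CD103+CD11b+ DCs on these same arrays, so their direction here is not independent evidence. Of 6 measured, 5 were called lower in CD103-CD11b- DCs, with a median of -2.08. Beyond *Cd101* and *Gp2* these were *Siglecf*, a sialic acid-binding receptor (difference -2.14 ± 0.17), *Cdh1*, which encodes E-cadherin, the ligand of CD103 (-2.02 ± 0.27), and *Trem1*, an activating receptor of myeloid cells (-1.50 ± 0.16). *Epcam* was at 7.67, 7.38 and 7.38 against 8.28, 8.19 and 8.31 and did not pass (difference -0.78 ± 0.37, limma adjusted p = 0.3). Epithelial genes moved somewhat the same way, as 26 gut epithelial markers had a median of -0.55 (-0.29 without CD103+CD11b+ array 3) with none called, and their mean signals were 6.51 to 6.99 on the CD103-CD11b- arrays and 7.01 to 7.68 on the CD103+CD11b+ arrays. The part of epithelial RNA in the differences of *Cdh1* and *Epcam* was not tested.

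Other transcription factors of DCs divided by gene. Of 43 measured, 5 were called higher and 2 lower, where 0.908% and 1.02% of all genes were, with a median of -0.06. Without CD103-CD11b- array 2 or CD103+CD11b+ array 1 the higher calls came to 3, and without any array but CD103-CD11b- array 2 the lower calls came to 1. *Tcf4*, which encodes E2-2, the factor of plasmacytoid DCs, had signals of 8.80, 8.66 and 8.45 in CD103-CD11b- DCs and of 7.12, 7.27 and 7.54 in CD103+CD11b+ DCs (1.32 ± 0.13, limma adjusted p = 1.2e-05). *Spib*, an Ets factor of plasmacytoid DCs and B cells, was at 7.65, 7.05 and 6.81 against 5.70, 5.31 and 5.60 (1.63 ± 0.19). *Klf2* (1.13 ± 0.17) and *Mef2c* (1.03 ± 0.21) completed the increases with *Irf8*. *Runx1*, a factor of haematopoiesis, was lower at 9.02, 8.66 and 8.99 against 10.33, 10.20 and 10.27 (-1.37 ± 0.12), as was the orphan nuclear receptor *Nr4a3* (-1.30 ± 0.27), whose call was lost without any one of 5 of the 6 arrays. *Id2*, an inhibitor of E proteins that all conventional DCs express, differed by 0.27 ± 0.18.

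Growth factor receptors of myeloid cells were higher in part. Of 8 measured, *Csf1r*, the receptor of M-CSF, was called at 8.45, 8.08 and 8.26 against 7.10, 6.71 and 7.09 (1.29 ± 0.20, limma adjusted p = 0.00069), and *Csf3r*, the receptor of G-CSF, at 6.04, 5.87 and 6.11 against 4.49, 4.41 and 4.61 (1.50 ± 0.19). None was called lower, and the median was 0.13. The GM-CSF receptor chains *Csf2ra* (-0.72 ± 0.15, adjusted p = 0.00601) and *Csf2rb* (-0.59 ± 0.12, adjusted p = 0.00712) were lower but short of the fold required. *Csf2rb2* was short of it on the higher side (0.98 ± 0.15, adjusted p = 0.00062). *Csf1r* was at 8.70 in CD103-CD11b+ DCs and 11.71 in macrophages.

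**Figure D3:**
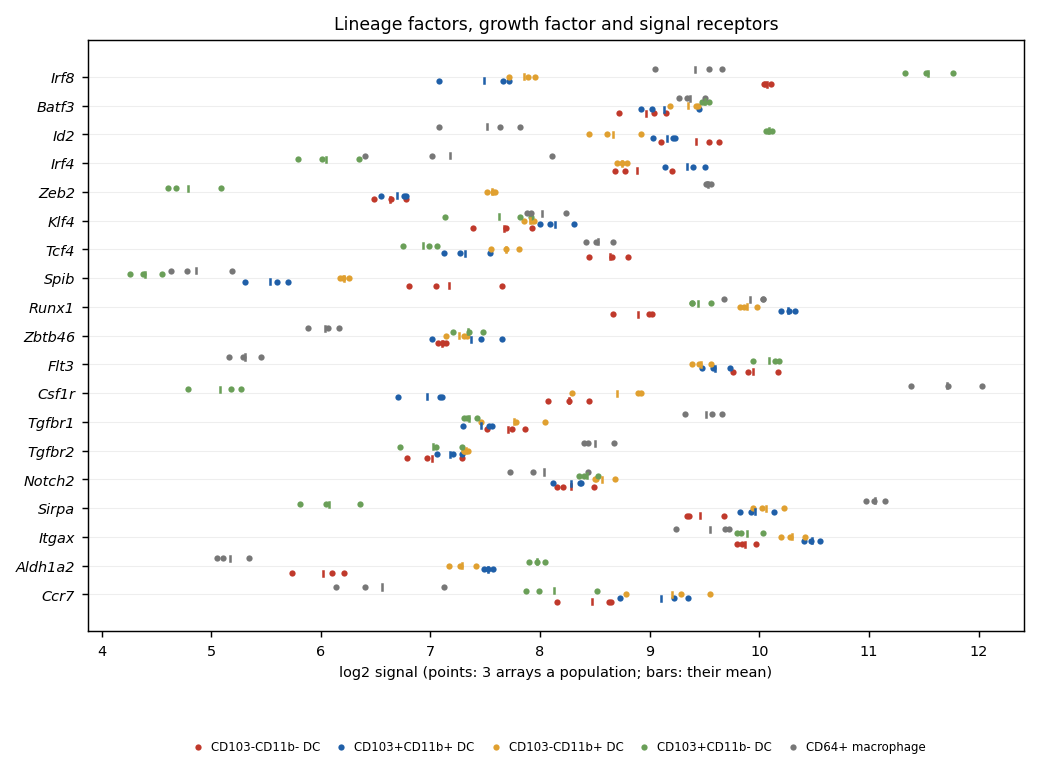
Log2 signal of lineage factors, growth factor receptors and signal receptors, with a point for each of 3 arrays of 5 populations and a bar at their mean. The red CD103-CD11b- DCs lie above the blue CD103+CD11b+ DCs for *Irf8*, *Tcf4*, *Spib* and *Csf1r*, below them for *Runx1* and *Aldh1a2*, and among them for *Batf3*, *Zeb2*, *Notch2* and *Tgfbr1*.

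The TGFβ and Notch pathways, which are known to act on CD103+CD11b+ DCs, differed little at the level of their receptors. Of 33 genes of the TGFβ pathway, *Tgfbi* alone was called, and the median was -0.06. *Smad7*, the feedback inhibitor of the pathway, fell short of the fold required (-0.95 ± 0.15, limma adjusted p = 0.00116) and was called lower without CD103-CD11b- array 2 (-1.04) or CD103+CD11b+ array 3. *Tgfbr1*, the type I receptor of TGFβ, had signals of 7.52, 7.86 and 7.74 in CD103-CD11b- DCs and of 7.53, 7.30 and 7.56 in CD103+CD11b+ DCs (0.24 ± 0.14), and *Tgfbr2*, the type II receptor, differed by -0.17 ± 0.14. Of 22 Notch genes none was called, with a median of -0.04, although 2 were called higher without CD103+CD11b+ array 3. *Notch2*, on which CD103+CD11b+ DCs depend, had means of 8.28 ± 0.18 and 8.28 ± 0.14. The Notch target *Hes1* (0.91 ± 0.17, limma adjusted p = 0.00325) and the coactivator *Maml2* (0.89 ± 0.18, adjusted p = 0.00513) fell short of the fold required.

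In the retinoic acid pathway, 1 of 19 genes was called lower and none higher, with a median of -0.09. This was *Aldh1a2*, which encodes the enzyme that makes retinoic acid from retinal and with it the gut-homing signal for T cells. Its signals were 6.11, 5.74 and 6.21 in CD103-CD11b- DCs and 7.49, 7.52 and 7.57 in CD103+CD11b+ DCs, a 2.85-fold lower level (-1.51 ± 0.12, limma adjusted p = 1.5e-06). CD103-CD11b- DCs were also below CD103-CD11b+ DCs by 1.27 (adjusted p = 2.6e-05) and below CD103+CD11b- DCs by 1.95 (adjusted p = 6.8e-08), which made them the DC population with the lowest signal.

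C-type lectin receptors, which bind glycans of microbes and host cells, were among the groups with the most calls. Of 28 measured, 10 were called lower and 3 higher, where 1.02% and 0.908% of all genes were, with a median of -0.36. *Cd209c* was at 5.24, 4.42 and 4.65 in CD103-CD11b- DCs against 8.55, 7.94 and 7.93 in CD103+CD11b+ DCs (-3.37 ± 0.26, limma adjusted p = 1.5e-06), and *Cd209b*, which encodes SIGNR1, was at 4.64, 4.93 and 4.69 against 8.0, 7.84 and 7.32 (-2.96 ± 0.25). *Cd209d*, from the same gene cluster, went the other way. These genes are similar in sequence, so probes of one member may also read another. The third member called higher beside *Clec9a* and *Cd209d* was *Clec12a* (1.23 ± 0.26), and the higher calls came to 2 without any one of the arrays.

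Paired activating and inhibitory receptors of the Siglec, CD300, PILR, TREM and LILR families with Fc receptors gave 12 genes called lower and 2 higher out of 33, with a median of -0.34. Over all genes the shares were 1.02% and 0.908%. *Pilra*, an inhibitory receptor, had signals of 9.43, 9.41 and 9.67 against 11.26, 11.34 and 11.16 (-1.75 ± 0.21, limma adjusted p = 9.6e-05). *Treml4* was lower by the same amount (-1.75 ± 0.27) and *Siglecf* by more. The increases were in *Siglech*, a receptor of plasmacytoid DCs, at 6.79, 6.20 and 5.84 against 4.52, 4.41 and 4.53 (1.79 ± 0.26), and in *Cd300c* (1.65 ± 0.13).

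Chemokines and chemokine receptors were called in both directions, 5 higher and 5 lower of 29, with a median of -0.10. Over all genes the shares were 0.908% and 1.02%. All of the increases were in receptors. *Ccr9*, the receptor for the small intestinal chemokine CCL25, was at 8.66, 9.10 and 8.78 against 6.37, 6.21 and 6.64 (2.44 ± 0.26, limma adjusted p = 2.4e-05), and *Ccr2*, *Xcr1*, *Cxcr3* (1.96 ± 0.17) and *Ccr10* (1.72 ± 0.37) were the others, of which *Ccr10* lost its call without any single one of the 6 arrays. The ligands *Ccl17* and *Ccl22*, which attract CCR4+ T cells, were lower. *Ccl17* was at 7.04, 6.80 and 7.46 against 9.71, 9.85 and 9.90 (-2.73 ± 0.18, adjusted p = 3.6e-07) and *Ccl22* at 6.98, 6.12 and 6.57 against 8.90, 9.06 and 9.17 (-2.49 ± 0.23). CD103-CD11b- DCs were below all 3 other DC populations for both ligands, with *Ccl17* differences of -3.08 from CD103-CD11b+ DCs and -2.79 from CD103+CD11b- DCs. The remaining decreases were in *Ccr1* (-1.35 ± 0.25), *Cxcl16* (-1.29 ± 0.08) and *Ccrl2* (-1.11 ± 0.16), and the lower calls came to 3 without CD103-CD11b- array 3. The call of *Ccr1* was lost without any of 4 of the arrays.

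Genes of DC maturation and migration had a median of -0.48, with 3 of 21 called lower and none higher. The 3 were both chemokines and *Cd274*, which encodes the inhibitory ligand PD-L1 (-1.01 ± 0.22, limma adjusted p = 0.00888), a call lost without any of 5 of the 6 arrays. *Ccr7*, the receptor that guides DCs to lymph nodes, was at 8.63, 8.65 and 8.15 against 8.73, 9.35 and 9.22 and did not pass (-0.62 ± 0.27, adjusted p = 0.236). Of 21 genes of antigen presentation, *Cd1d1* alone was called, at -1.11 ± 0.21, and its call was lost without any of 4 of the arrays.

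Among T cell polarising cytokines and costimulators, 4 of 23 were called lower and 2 higher, with a median of -0.03. *Il1a*, which encodes IL-1α, was at 5.78, 4.89 and 5.33 in CD103-CD11b- DCs against 8.73, 8.71 and 8.26 in CD103+CD11b+ DCs (limma adjusted p = 1.4e-05). *Il1rn*, which encodes the antagonist of the IL-1 receptor, went the other way at 6.76, 7.47 and 7.42 against 5.57, 5.60 and 5.69 (1.60 ± 0.16, adjusted p = 1.8e-05). *Ebi3*, a subunit of IL-27 and IL-35, was lower by 1.52 ± 0.17, and *Tnfsf13b*, which encodes BAFF, and *Tnf* had differences of -1.36 ± 0.18 and -1.16 ± 0.19. *Il22ra2* was the remaining increase.

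Pattern recognition receptors had 2 genes called higher and 2 lower of 24, where 0.908% and 1.02% of all genes were, with a median of -0.16. The increases were in *Tlr3* and *Tlr12*, a mouse receptor for profilin (1.54 ± 0.33, limma adjusted p = 0.00969), and the decreases in *Nlrp3* (-1.25 ± 0.24) and *Nlrp1b* (-1.23 ± 0.25), both sensors that start an inflammasome. The call of *Tlr12* was lost without any single one of the 6 arrays, that of *Nlrp1b* without any of 5 and that of *Nlrp3* without any of 4.

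Genes that respond to interferon were called lower in 4 of 21 cases and higher in none, with a median of -0.18. Over all genes the shares were 1.02% and 0.908%. *Ifit3* was at 6.11, 5.73 and 5.91 in CD103-CD11b- DCs against 7.81, 7.39 and 7.20 in CD103+CD11b+ DCs (-1.55 ± 0.24, limma adjusted p = 0.00087), and *Oas1a*, a sensor of double-stranded RNA, was at 5.88, 5.58 and 6.48 against 7.47, 7.38 and 7.31 (-1.40 ± 0.22). *Rtp4* (-1.36 ± 0.21) and *Oasl2* (-1.16 ± 0.19) were the others, and *Gbp4*, which is on no list, was lower by 1.87 ± 0.19. *Gbp4* was chosen after its values were seen. The means of *Ifit3* in the other DCs were 7.34 for CD103-CD11b+ and 5.38 for CD103+CD11b-. *Ifi205* of the cDC1 list, also an interferon-inducible gene, had the opposite sign.

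The promoters of *Ifit3*, *Oas1a* and *Apol7c*, which were lower in CD103-CD11b- DCs, and of *Ifi205*, which was higher, are shown because each holds the letters of an interferon-stimulated response element (ISRE), the sequence that IRF factors including IRF8 and the interferon-activated complex bind. The sequences are from RefSeq (GRCm38.p6), run from 250 bases before to 50 bases after the start of the gene in the direction of transcription, and have the ISRE match in capitals, which is GAAA, any 2 bases and GAAA on either strand. They lie at chr19:34583279-34583578 on the plus strand for *Ifit3* and, on the minus strand, at chr5:120907476-120907775 for *Oas1a*, chr15:77533266-77533565 for *Apol7c* and chr1:174031706-174032005 for *Ifi205*.
Ifit3: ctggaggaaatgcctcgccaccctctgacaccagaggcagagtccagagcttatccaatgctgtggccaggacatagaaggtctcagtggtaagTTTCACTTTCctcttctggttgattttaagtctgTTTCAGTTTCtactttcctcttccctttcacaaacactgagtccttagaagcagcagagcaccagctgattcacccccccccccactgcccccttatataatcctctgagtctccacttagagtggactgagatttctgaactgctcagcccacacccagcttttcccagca
Oas1a: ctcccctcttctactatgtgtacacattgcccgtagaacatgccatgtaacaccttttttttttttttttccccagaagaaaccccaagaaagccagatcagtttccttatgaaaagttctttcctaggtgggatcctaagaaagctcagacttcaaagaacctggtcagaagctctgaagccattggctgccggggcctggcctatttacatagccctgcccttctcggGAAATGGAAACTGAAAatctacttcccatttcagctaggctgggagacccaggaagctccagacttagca
Apol7c: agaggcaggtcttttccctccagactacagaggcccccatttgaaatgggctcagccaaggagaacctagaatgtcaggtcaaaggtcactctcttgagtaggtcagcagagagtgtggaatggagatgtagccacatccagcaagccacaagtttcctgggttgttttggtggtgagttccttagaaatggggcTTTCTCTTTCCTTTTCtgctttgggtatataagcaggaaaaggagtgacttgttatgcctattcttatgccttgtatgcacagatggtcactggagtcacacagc
Ifi205: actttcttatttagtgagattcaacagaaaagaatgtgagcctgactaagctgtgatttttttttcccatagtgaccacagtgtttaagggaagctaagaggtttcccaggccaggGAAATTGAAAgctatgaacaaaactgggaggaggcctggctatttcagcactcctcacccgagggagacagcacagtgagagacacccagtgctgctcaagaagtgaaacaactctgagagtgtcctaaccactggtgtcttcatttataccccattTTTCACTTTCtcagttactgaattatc

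The matches began 156 and 122 bases before the start of *Ifit3*, 20 and 14 bases before that of *Oas1a*, where they overlap, and 55 and 49 bases before that of *Apol7c*, where they overlap too. *Ifi205* had 1 match that began 134 bases before its start and 1 that began 23 bases after it. Of 15614 tested genes with a promoter window, 3.32% held the ISRE letters. The share was 9.43% of 159 windows of genes called lower in CD103-CD11b- DCs and 5.84% of 137 windows of genes called higher. The letters of the Ets-IRF composite element, GGAA, any 2 bases and GAAA, which can overlap an ISRE, were in 2.59% of all windows, 4.4% of those called lower and 3.65% of those called higher. The box CACCTG, which ZEB proteins bind, was in 19.2%, 23.3% and 24.8%. These shares describe letters in a window, and members of 1 gene family share sequence.

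Immediate early and heat shock genes, which can report handling of the cells as well as their state, had 3 of 26 members called lower and none higher, with a median of -0.23. *Egr2* was at 7.35, 7.59 and 7.13 against 9.63, 9.72 and 9.40 (-2.23 ± 0.32, limma adjusted p = 0.00036). *Atf3*, a stress-induced factor, was lower by 1.17 ± 0.21 and *Nr4a3* by the value given above. With 1 array left out the count came to 1 to 3, and *Atf3* lost its call without any of 4 of the arrays.

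Enzymes and receptors of the eicosanoids, the lipid mediators made from arachidonic acid, had 4 members called lower and 1 higher of 19, with a median of -0.14. *Alox5*, which encodes the 5-lipoxygenase that starts leukotriene synthesis, was higher at 6.44, 6.36 and 6.83 against 5.13, 5.53 and 5.13 (1.28 ± 0.20, limma adjusted p = 0.0008). *Ltc4s*, the enzyme of the next branch that makes leukotriene C4, was lower at 5.83, 5.61 and 5.27 against 8.64, 7.78 and 7.73 (-2.48 ± 0.27, adjusted p = 3e-05). The receptor of cysteinyl leukotrienes, *Cysltr1* (-1.30 ± 0.18), the prostaglandin-degrading enzyme *Hpgd* (-1.64 ± 0.19) and the prostaglandin E receptor *Ptger3* (-1.25 ± 0.20) were lower too.

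Of 14 S100 genes only *S100a4* and *S100a6* were called, and the median was 0.01. Among 21 integrins and adhesion receptors, a list that leaves out the sort genes *Itgae* and *Itgam*, *Itgal*, the α chain of LFA-1, was called higher at 7.53, 8.09 and 7.08 against 5.88, 5.21 and 5.58 (2.01 ± 0.25, limma adjusted p = 0.00011). Cell cycle and DNA replication genes had a median of 0.23 and 1 call of 36. That gene, *Hells*, a chromatin remodeller of replicating cells, was higher by 1.05 ± 0.12, and without CD103-CD11b- array 1 it was at 1.0 and not called. *Serpinb6b*, a protease inhibitor chosen after its values were seen, was 4.18-fold lower in CD103-CD11b- than in CD103+CD11b+ DCs, with a mean of 10.72 in the CD103+CD11b- population.

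**Figure D4:**
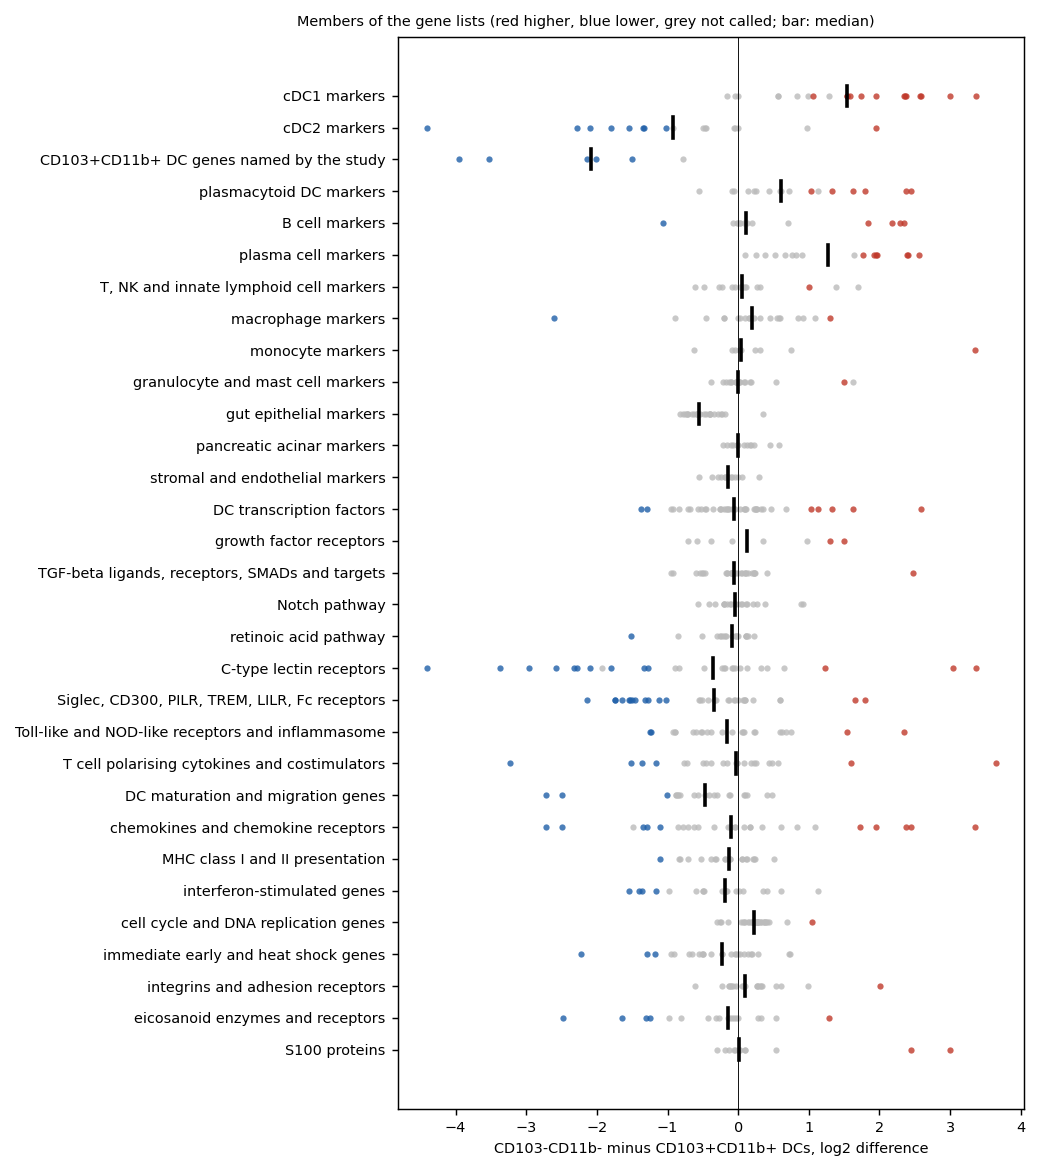
Log2 difference, CD103-CD11b- minus CD103+CD11b+ DCs, of each measured member of 31 gene lists, with a black bar at the median of the list; red members are called higher, blue called lower and grey not called. The cDC1 list has its median at 1.54 and the plasma cell list at 1.27, while the cDC2 list lies at -0.92 and the genes the study named for CD103+CD11b+ DCs at -2.08.

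Some markers of antibody-secreting cells and of plasmacytoid DCs were called higher in CD103-CD11b- DCs, beside others that did not pass. Of 16 plasma cell markers, 7 were called higher and none lower, where 0.908% and 1.02% of all genes were, with a median of 1.27. *Mzb1*, a chaperone-associated protein of antibody-secreting cells, was at 9.75, 11.30 and 10.56 in CD103-CD11b- DCs against 8.18, 7.53 and 8.20 in CD103+CD11b+ DCs (2.56 ± 0.46, limma adjusted p = 0.00246), and lost its call without CD103-CD11b- array 2 (adjusted p = 0.016), without array 3 (0.011) or without CD103+CD11b+ array 2 (0.017). *Tnfrsf17*, which encodes BCMA, was at 8.32, 9.09 and 8.31 against 6.16, 5.79 and 6.58 (2.40 ± 0.27), and *Pou2af1*, a coactivator of B cells, at 9.25, 10.35 and 9.57 against 7.47, 6.89 and 7.61 (2.40 ± 0.37). *Sdc1*, which encodes the plasma cell antigen CD138, was at 7.32, 8.41 and 7.29 against 6.13, 5.53 and 6.04 (1.77 ± 0.29), and *Derl3* was higher by 1.97 ± 0.36, a call lost without any of 3 of the arrays. Array 2 of CD103-CD11b- DCs was the highest for each of these genes. *Bhlha15*, a factor of secretory cells chosen after its values were seen, was also highest there, at 8.70 against 7.09 and 7.05, and its call (1.86 ± 0.37) was lost without CD103+CD11b+ array 2 or 3.

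The mean signal of the 16 plasma cell genes was 9.04, 9.85 and 9.18 on the CD103-CD11b- arrays and 8.14, 7.82 and 8.16 on the CD103+CD11b+ arrays. Without CD103-CD11b- array 2 the median difference fell to 0.92, with 5 genes called. All 16 of the genes had a mean over 6 in CD103-CD11b- DCs and 15 of them in CD103+CD11b+ DCs. The part of plasma cell RNA in the differences of *Mzb1* and the genes above was not tested.

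Of 14 B cell markers, 4 were called higher and 1 lower, where 0.908% and 1.02% of all genes were, with a median of 0.10. *Cd79a* and *Cd79b*, the signal chains of the B cell receptor, were at 8.04, 8.20 and 7.66 against 6.43, 5.69 and 6.25 (1.84 ± 0.28, limma adjusted p = 0.00065) and at 8.69, 9.49 and 8.71 against 6.80, 6.03 and 7.02 (2.35 ± 0.29, adjusted p = 0.0001). *Blnk*, an adaptor below the same receptor, was higher by 2.29 ± 0.30 and *Vpreb3* by 2.17 ± 0.32. The genes that define mature B cells stayed low, with *Ms4a1*, which encodes CD20, at 3.74 ± 0.06 against 3.71 ± 0.11 and *Pax5* at 4.38 ± 0.05 against 4.41 ± 0.10. *Bank1* was the member called lower (-1.06 ± 0.14), a call lost without CD103-CD11b- array 2. The mean of the list was 5.56 to 5.72 on the CD103-CD11b- arrays and 4.83 to 5.10 on the CD103+CD11b+ arrays. Macrophages had 5.68, 6.03 and 5.80, and the CD103-CD11b+ arrays 5.39, 5.03 and 5.23. *Cd79b* in CD103-CD11b- DCs differed by -0.03 from macrophages (limma adjusted p = 0.969) and *Cd79a* by 0.85 (adjusted p = 0.043). *Blnk* and *Vpreb3* were higher than in macrophages, by 1.28 and 1.83.

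Of 17 plasmacytoid DC markers, 6 were called higher and none lower, where 0.908% and 1.02% of all genes were, with a median of 0.61. Beside *Ccr9*, *Siglech*, *Spib* and *Tcf4* these were *Ly6d*, a surface antigen of B cell and plasmacytoid DC precursors, at 9.87, 9.77 and 9.05 against 7.39, 6.93 and 7.23 (2.38 ± 0.31, limma adjusted p = 0.00019), and *Bst2* (1.02 ± 0.20), whose call was lost without any of 4 of the arrays. The list had mean signals of 7.04, 6.99 and 6.87 on the CD103-CD11b- arrays, above the 6.04 to 6.22 of CD103+CD11b+ DCs, 6.32 to 6.52 of CD103-CD11b+ DCs and 5.92 to 6.03 of CD103+CD11b- DCs. Macrophages had 6.63 to 7.01. Some of the called genes did not differ by a detectable amount from another population. *Ccr9* differed by 0.61 from CD103+CD11b- DCs (limma adjusted p = 0.199). From macrophages, *Siglech* differed by 0.28 (adjusted p = 0.571), *Tcf4* by 0.10 (adjusted p = 0.692) and *Bst2* by -0.32 (adjusted p = 0.319). *Spib*, *Ly6d* and *Ccr9* were above macrophages, by 2.30, 1.75 and 3.03. B220 is carried by plasmacytoid DCs and B cells, and a B220- gate is labelled once in the study but is in neither its methods nor the labels, so whether the sort removed B220+ cells is not settled here.

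T, NK and innate lymphoid cell markers gave 1 call of 17, *Cd8b1* (1.0 ± 0.12), whose difference came to 0.93 without CD103-CD11b- array 1 or CD103+CD11b+ array 3 and to 0.99 without CD103+CD11b+ array 2, short of a call, and their median was 0.05. *Thy1* (1.69 ± 0.38, limma adjusted p = 0.0111) and *Cd2* (1.39 ± 0.36, adjusted p = 0.0301) had larger differences that did not pass. Differences in the list ran from -0.62 to 1.69. *Cd3e*, which defines T cells, was at 5.12, 5.50 and 5.46 against 5.99, 5.26 and 5.65. Receptors of activated T cells that are on no list were nevertheless higher in CD103-CD11b- DCs and were chosen after their values were seen. *Tigit* was at 7.56, 9.08 and 8.03 against 5.60, 5.80 and 6.42 (2.29 ± 0.33, limma adjusted p = 0.00039), *Ctla4* at 8.66, 10.26 and 9.08 against 7.24, 6.68 and 7.50 (2.19 ± 0.39, adjusted p = 0.00238) and *Cd28* at 7.37, 8.52 and 6.89 against 5.64, 5.53 and 5.94 (1.89 ± 0.34, adjusted p = 0.0023). Array 2 of CD103-CD11b- DCs, the highest in plasma cell genes, was the highest for all 3. The call of *Ctla4* was lost without that array, at a difference of 1.73 (adjusted p = 0.01), and without CD103+CD11b+ array 2 (adjusted p = 0.017), and that of *Cd28* without CD103+CD11b+ array 1 (adjusted p = 0.013) or array 2 (adjusted p = 0.014).

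Macrophage markers gave 1 gene called higher, *Csf1r*, and 1 lower, *Adgre1*, of 20. *Adgre1*, a surface antigen by which mouse macrophages are recognised, was at 5.56, 4.68 and 5.26 in CD103-CD11b- DCs against 8.09, 7.73 and 7.50 in CD103+CD11b+ DCs (-2.60 ± 0.25, limma adjusted p = 9.2e-06), and at 10.68 in macrophages. The median of the list was 0.19, and -0.04 without CD103-CD11b- array 1, whose macrophage genes stood apart. *Cx3cr1*, the fractalkine receptor of macrophages, was at 6.79, 5.74 and 6.01 against 5.13, 4.82 and 5.35 and just missed the call (1.08 ± 0.25, adjusted p = 0.0128). Of 9 monocyte markers *Ccr2* alone was called, with a median of 0.03.

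Of 20 granulocyte and mast cell markers, *Csf3r* alone was called (median 0.00). No call was made among 26 epithelial, 15 pancreatic acinar (median 0.00, and -0.80 to 0.62 with 1 array left out) or 14 stromal and endothelial markers (median -0.14). The widest differences in these lists did not pass. They were -0.82 ± 0.41 for *Fabp2* and -0.79 ± 0.27 for *Apoa1* of the gut epithelium, 0.57 ± 1.27 for *Try5* and 0.46 ± 0.81 for *Pnliprp1* of the exocrine pancreas, and -0.56 ± 0.54 for *Sparc* and -0.37 ± 0.52 for *Dcn* of stromal cells. *Try5* ranged from 5.94 to 8.98 in CD103-CD11b- DCs and from 5.24 to 8.31 in CD103+CD11b+ DCs, with the highest signal on array 2 of each.

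**Figure D5:**
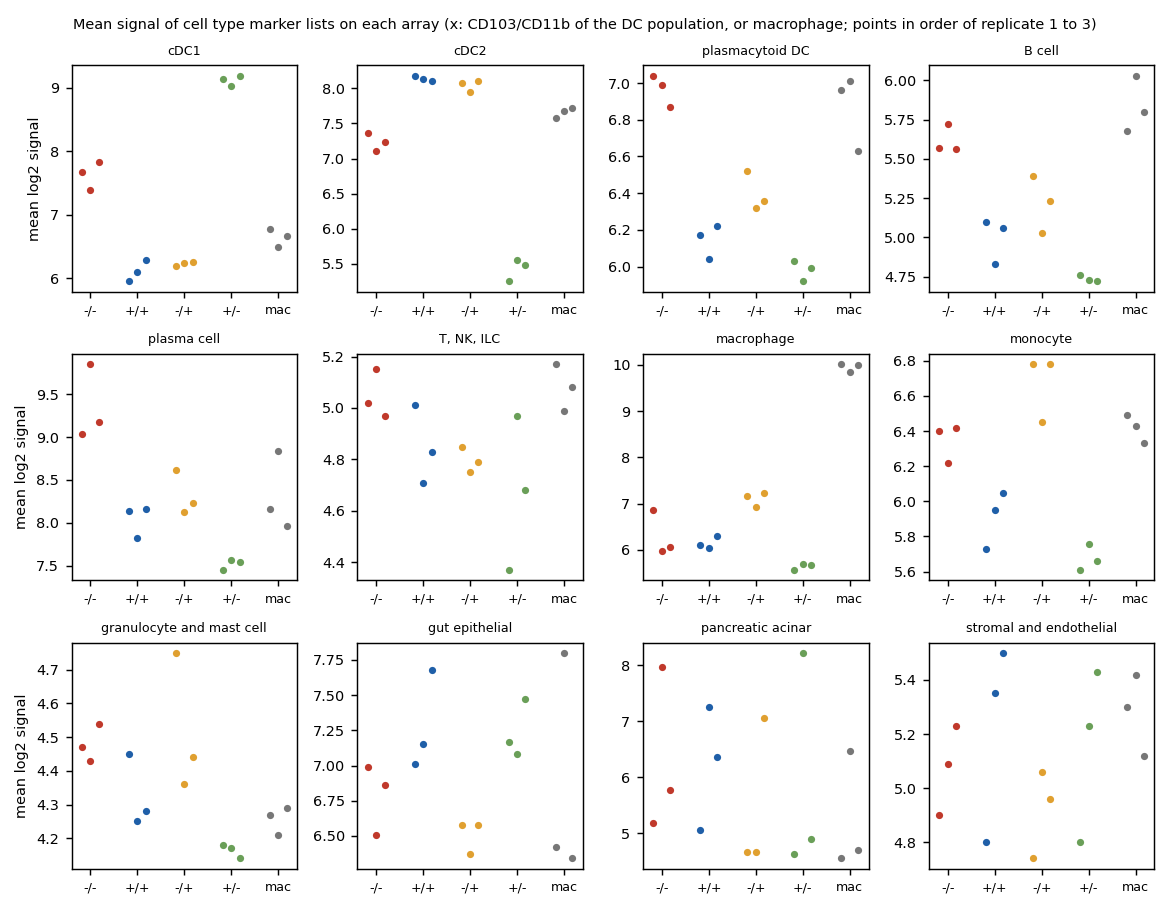
Mean log2 signal of 12 lists of cell type markers on each of 15 arrays; signs give CD103 and CD11b of the DC population, mac stands for CD64+ macrophages, and points run from replicate 1 to 3. The CD103-CD11b- arrays in red have 7.39 to 7.83 for cDC1 and 9.04 to 9.85 for plasma cell markers, with replicate 1 apart in macrophage markers and replicate 2 in plasma cell and acinar markers.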

How the data were processed

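RNA of 5 populations of 3 arrays each was measured on Affymetrix whole-transcript mouse arrays (Mouse Gene ST), each of which carried 1 sample. Per the study's methods, total RNA was amplified with NuGEN kits, and the authors turned the scans into signals by RMA, which corrects background, makes the arrays alike by quantile normalization, summarizes probesets and takes log2. The deposited values are these log2 signals. Quantile normalization makes the arrays alike in distribution and removes any difference in total RNA. The labels give collagenase at 0.8 mg/ml, the number of mice per sample and the genome build are not given in the sources used here, and raw intensities were not used.

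Of 35556 probesets, 21789 had 1 symbol in the platform annotation, 1621 had several and 12146 had none in the annotation table used. Keeping the probeset with the highest mean, for 999 genes with more than 1, gave 19938 genes, of which 19856 matched RefSeq by gene ID.

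Differences were fitted with limma 3.58.1 (R 4.3.3) on all 15 arrays, a mean per population, with a shared estimate of the spread, moderated by eBayes, and Benjamini-Hochberg adjustment over all genes. Calls used the study's thresholds, an adjusted p under 0.01 together with an absolute log2 difference above 1. On simulated arrays the test recovered 96% of 100 genes changed by 1.5 and 99% of 100 changed by 2 (log2), with 0 false calls. The simulated spread was independent between genes and between arrays. It held no array that stands apart in genes of other cells, so it gives no error rate for the real arrays. The number of arrays limits the precision. Tables were made with pandas 2.3.3 and numpy 2.4.6 in Python 3.11.15, and figures with matplotlib 3.10.9.

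The populations compared, the 31 gene lists and the tests were chosen with earlier results of these data known. Genes named are the 15 per direction with the largest difference among called genes without overlap (immunoglobulin, T cell receptor, predicted, olfactory and small RNA symbols left out, 3 higher and 4 lower), up to 4 called members of each list or 2 where none was called, and a list of sort, lineage and receptor genes. Named after their values were seen were *Ctla4*, *Tigit*, *Cd28*, *Bhlha15*, *Gbp4*, *Serpinb6b*, *Ms4a1*, *Pax5* and the members given to complete a short count (*Klf2*, *Mef2c*, *Nr4a3* among the transcription factors, *Cxcr3*, *Ccr10*, *Ccr1*, *Cxcl16*, *Ccrl2*, *Tnf*, *Tnfsf13b*, *Bank1*, *Bst2*, *Clec12a*, *Cd300c*, *Ptger3*, and the near miss *Smad7*). *Thy1*, *Cd2*, *Csf2ra*, *Csf2rb*, *Csf2rb2* and *Tbx21* are further near misses named after their values were seen, and are not counted among the named genes below. Promoter letters were searched on both strands in the first RefSeq window of each gene.

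Alternatives were other normalizations of the log2 signals, the mean of all probesets, a limit on dim genes, other sets of arrays, a robust trend, array weights, the replicate number as a block, treat, Student's t-test, which the study's methods name in general and not for the arrays, a looser adjusted p and each array left out.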

Additional observations from a re-analysis of the deposited data

How the results depend on the processing

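Of the 130 genes named by the rules above, 100 were called, and none of these changed direction under any of 18 settings. Much of this was fixed beforehand. Leaving out 1 array could not reverse a called gene, whose arrays did not overlap, and settings that changed only the test kept the difference. Of the 100 called genes, 74 kept the call under every setting other than treat and the methods' t-test, and 22 lost it without some single array. The counts of 181 higher and 203 lower genes came to 146 to 185 and 167 to 201 with 1 array left out, 146 and 172 on the 6 arrays alone, and 206 and 215 at an adjusted p under 0.05. The treat test, set against a difference of 1, called 18 higher and 30 lower. The methods' t-test, which the study names in general and not for its arrays and which pools no spread across genes, called 0 higher and 0 lower at the study's thresholds, with 2939 genes at an unadjusted p under 0.05 and 139 at an adjusted p under 0.05.

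The replicate numbers were not shown to pair the arrays, as deviations of same-numbered arrays correlated across genes at 0.15, 0.29 and 0.06. With the replicate number as a block the counts were 192 higher and 209 lower, and *Nlrp1b* (adjusted p = 0.011) and *Clec12a* (adjusted p = 0.012) lost their calls.

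The genes that changed direction were not called. *Notch2* came to 0.01 with arrays shifted to one median and to 0.02 with array weights, and *Pax5* to 0.01 with cyclic loess. With 1 array left out *Notch2* ranged from -0.10 to 0.07, *Fcgr1* from -0.12 to 0.31, *Zeb2* from -0.13 to 0.01, *Dcn* from -1.05 to 0.08, *Ms4a1* from -0.03 to 0.06, *Pax5* from -0.07 to 0.03, *Pnliprp1* from -0.25 to 0.98 and *Try5* from -0.31 to 1.41. The cause was not tested. *Cx3cr1* passed with the limit on dim genes (adjusted p = 0.0065) and with the robust trend (adjusted p = 0.0089). Without 1 array the number of members called in 1 direction came to 2 in place of 1 in the monocyte, macrophage, granulocyte and integrin lists.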
